A study of Mus musculus with 12 samples.

Results

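The cytochrome P450 genes of families Cyp1, Cyp2 and Cyp3 encode the membrane-bound haem enzymes of the liver that oxidise drugs, toxins, steroids and fatty acids. Members were all genes whose symbol begins with Cyp1, Cyp2 or Cyp3 followed by a subfamily letter and a number, without Cyp2b9, Cyp2b10 and Cyp2b13, that had at least 10 estimated counts in at least 3 of the 12 libraries. Of 53 symbols of this form, 3 were left out by name and 12 fell under the minimum, which left 38 members among 16239 named genes. They comprised 12 Cyp2c, 6 Cyp2d, 5 Cyp3a, 4 Cyp2a, 3 Cyp2j and 2 Cyp1a genes and 1 gene each of Cyp1b, Cyp2e, Cyp2f, Cyp2r, Cyp2s and Cyp2u. Just inside the minimum lay Cyp3a41a, with 3 libraries at 10 counts or more and at most 12 counts. These libraries were LF knockout 2 and 3 and HF floxed 1, in the groups named below. Just outside lay Cyp2c69 and Cyp3a57, with 2 such libraries each and at most 13.59 and 19 counts.

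Family Cyp1 enzymes are induced through the aryl hydrocarbon receptor (AHR), many Cyp2c genes through the constitutive androstane receptor (CAR), and Cyp3a genes mainly through the pregnane X receptor (PXR), each a transcription factor that responds to foreign compounds. In the liver lobule most of these enzymes are made by hepatocytes around the central vein, with Cyp2f2 as a known exception around the portal tracts. Inflammatory cytokines lower many of them, and several mouse members differ in level between males and females.

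The libraries were made from total RNA of whole liver of 129/B6 mice aged 10 months. Mice were fed an HF or an LF diet for 8 months, and carried either a macrophage specific knockout of TSP1 (thrombospondin 1, gene Thbs1) or a floxed TSP1 gene, which the labels also call WT. This gave 4 groups of 3 libraries: HF knockout, HF floxed, LF knockout and LF floxed. The labels give neither the Cre driver nor the sex of the mice, and do not say whether libraries of a group are separate animals. A p-value here therefore reflects only how these libraries differ from each other, which may be technical.

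Library totals were 16131506 to 16536016 estimated counts, and 12587 genes passed the filter on low counts, with all 38 members among them. Hnf4a, a defining hepatocyte factor, lay between 93.35 and 114.23 FPKM (fragments scaled to gene length and depth) in all 12 libraries. The list of 10 hepatocyte markers that holds it was less even. Its sum ran from 36860 FPKM in HF floxed library 3 to 99100 FPKM in HF knockout library 2. Its median ran from 201.6 FPKM in HF knockout library 2 to 376.5 FPKM in LF floxed library 1. Thbs1 had 0.16, 1.42 and 1.63 FPKM in HF knockout, against 0.75, 0.75 and 0.31 FPKM in HF floxed libraries. It had 0.08, 0.55 and 0.55 FPKM in LF knockout, against 0.11, 0.06 and 0.07 FPKM in LF floxed libraries. The group means were 1.07 FPKM in HF knockout and 0.603 FPKM in HF floxed, and 0.393 FPKM in LF knockout and 0.08 FPKM in LF floxed libraries, so neither knockout mean of the targeted gene lay below its floxed mean. Whole-liver RNA holds the Thbs1 RNA of other cells too, so it gives no check of a deletion in macrophages. Below, knockout stands for that label.

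Libraries stood apart in 2 ways that touch the P450 genes. HF knockout library 2 was lower than every other library for 20 of the 38 members (52.6%), against 19.3% of the 12587 genes tested. HF floxed libraries 1 and 2, and LF knockout libraries 2 and 3, were near copies of each other: the chi-square of their counts averaged 8.87 and 2.85 per gene, against 50.7 to 528 for the other pairs of a group. Both values exceed sampling noise, so all 12 libraries were kept. A group with such a pair nevertheless holds less independent information than its 3 libraries imply.

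The 38 genes together had 10141, 3119 and 8180 FPKM in the 3 HF knockout libraries, 6697, 6629 and 11167 FPKM in HF floxed, 8089, 10282 and 10374 FPKM in LF knockout, and 7525, 8799 and 7115 FPKM in LF floxed libraries. The 4 groups overlapped in this sum. Cyp2e1, which oxidises ethanol and acetaminophen, was the leading member in 11 of the 12 libraries with 22.3 to 48.0% of the summed FPKM. In HF knockout library 2 it made up 0.882%, and Cyp2a4 led there with 1120 FPKM. Between 6 and 17 members per library reached 100 FPKM or more, and 5 to 12 lay under 1 FPKM.

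**Figure D1:**
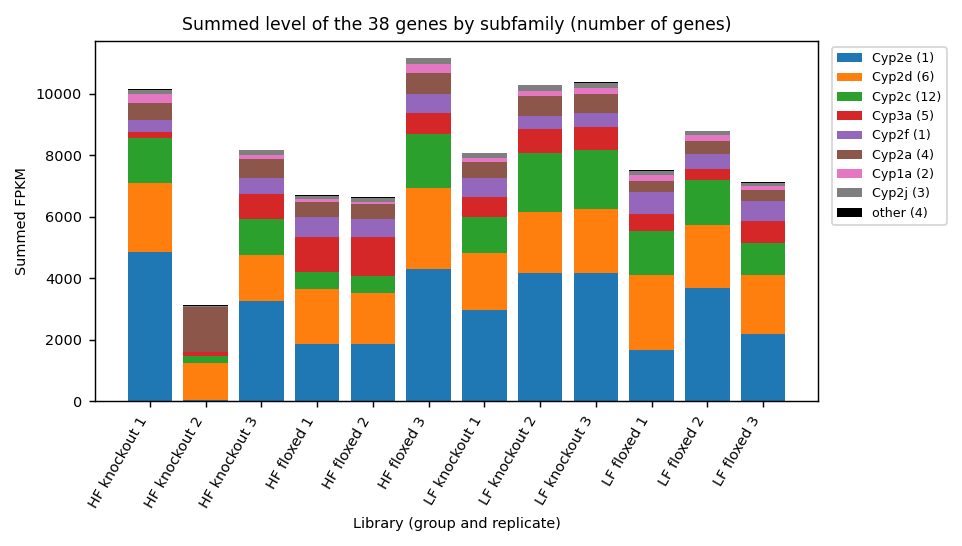
Summed FPKM of the 38 genes in each of the 12 libraries, stacked by subfamily, with the number of genes of each subfamily in the legend. HF knockout library 2 stands at 3119 FPKM with almost no Cyp2e1 and a large Cyp2a share, while the other 11 libraries lie between 6629 and 11167 FPKM.

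Many of these genes are near copies of a neighbour: 19 of the 38 had another gene of these families at 90% identity or more over the aligned transcript in the GENCODE M21 annotation. Cyp2a4 and Cyp2a5 were 98.2% identical, Cyp2c40 and Cyp2c68 98.0%, Cyp3a25 and Cyp3a59 97.0%, Cyp2a12 and Cyp2a22 96.2%, Cyp2c37 and Cyp2c50 95.8%, Cyp3a11 and Cyp3a41a 94.7% and Cyp2c38 and Cyp2c39 93.6%. Cyp3a41a was also 99.7% identical to Cyp3a41b, which is no member. The division of reads within such pairs is uncertain, because how the authors assigned shared reads is not given in the sources used here.

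Cyp2a4 and Cyp2a5, and Cyp2c38 and Cyp2c39, have similar promoters but had very different levels in the same library. Cyp2c29, Cyp2c37 and Cyp2c50 were low together in the same libraries. For these reasons the bases before the start of these 7 genes are shown. They are the 250 bases upstream of the start in the RefSeq promoter table (build GRCm38.p6), 5′ to 3′ on the gene's strand. Cyp2c39 has 2 starts in the table and the first is given. Capitals mark TATAAA, the box that places the start of transcription. They also mark AGGTCA, a half-site of nuclear receptors, and GTTAAT, a half-site of the liver factor HNF1. The Cyp2a pair lies on the plus strand at chr7:26306942-26307191 for Cyp2a4, a testosterone hydroxylase, and chr7:26835089-26835338 for Cyp2a5, the coumarin hydroxylase.
Cyp2a4: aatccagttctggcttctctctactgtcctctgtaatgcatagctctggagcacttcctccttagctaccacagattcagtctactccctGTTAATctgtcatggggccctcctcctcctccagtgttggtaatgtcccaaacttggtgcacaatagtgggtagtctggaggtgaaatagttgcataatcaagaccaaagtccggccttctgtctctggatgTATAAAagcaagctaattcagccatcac
Cyp2a5: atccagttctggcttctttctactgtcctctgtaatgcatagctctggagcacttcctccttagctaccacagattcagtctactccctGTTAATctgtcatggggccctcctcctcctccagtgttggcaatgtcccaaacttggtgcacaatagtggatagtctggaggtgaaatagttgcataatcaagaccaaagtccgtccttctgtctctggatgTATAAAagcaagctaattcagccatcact
These were 98.4% identical over 249 aligned bases and hold the same TATAAA and GTTAAT. The next pair lies at chr19:39463076-39463325 on the minus strand for Cyp2c38 and chr19:39347096-39347345 on the plus strand for Cyp2c39, a retinoic acid hydroxylase.
Cyp2c38: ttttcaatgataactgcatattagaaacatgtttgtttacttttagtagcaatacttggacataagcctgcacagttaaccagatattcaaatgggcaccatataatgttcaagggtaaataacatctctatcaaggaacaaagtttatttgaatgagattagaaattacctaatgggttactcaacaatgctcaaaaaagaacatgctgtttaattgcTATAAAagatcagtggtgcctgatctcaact
Cyp2c39: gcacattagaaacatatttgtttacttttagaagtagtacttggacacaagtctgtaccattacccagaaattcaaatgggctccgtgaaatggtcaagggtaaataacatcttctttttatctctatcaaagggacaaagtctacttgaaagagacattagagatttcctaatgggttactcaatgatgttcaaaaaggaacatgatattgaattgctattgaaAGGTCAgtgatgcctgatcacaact
They were 85.5% identical over 235 aligned bases, and TATAAA is spelled in Cyp2c38 only while AGGTCA is spelled in Cyp2c39 only. The last set, on the plus strand at chr19:39286835-39287084, chr19:39992174-39992423 and chr19:40089429-40089678, belongs to genes that were low together in HF knockout library 2 and in HF floxed libraries 1 and 2.
Cyp2c29: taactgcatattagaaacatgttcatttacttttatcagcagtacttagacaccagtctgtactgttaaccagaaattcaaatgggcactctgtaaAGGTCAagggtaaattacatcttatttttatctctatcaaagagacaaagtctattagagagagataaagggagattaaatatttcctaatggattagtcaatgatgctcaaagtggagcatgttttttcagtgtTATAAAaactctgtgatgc
Cyp2c37: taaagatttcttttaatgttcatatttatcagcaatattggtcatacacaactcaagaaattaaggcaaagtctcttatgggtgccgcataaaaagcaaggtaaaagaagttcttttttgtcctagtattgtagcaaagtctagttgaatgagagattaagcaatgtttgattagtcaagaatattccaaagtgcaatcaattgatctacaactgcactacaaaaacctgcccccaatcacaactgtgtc
Cyp2c50: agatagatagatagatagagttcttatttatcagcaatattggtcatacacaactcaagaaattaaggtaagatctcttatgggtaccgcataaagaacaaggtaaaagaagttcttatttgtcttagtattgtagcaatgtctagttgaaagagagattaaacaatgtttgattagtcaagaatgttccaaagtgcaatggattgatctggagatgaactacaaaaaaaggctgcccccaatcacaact
Cyp2c37 and Cyp2c50 were 87.8% identical over 245 aligned bases and hold none of the 3 motifs. Cyp2c29 was 68.1% identical to Cyp2c37 and holds both TATAAA and AGGTCA.

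Promoters were matched for 33 of the 38 members, and motifs were searched on both strands. TATAAA was found in 19 of the 33 (57.6%), against 13% of 27025 promoters, 1 per gene. AGGTCA was in 8 (24.2%, against 13.8%), GTTAAT in 5 (15.2%, against 6.52%) and TTGCNNAA, a C/EBP site, in 6 (18.2%, against 9.55%). GCGTG, the core of the element that AHR binds, was in 4 (12.1%, against 28.2%), namely Cyp1a1, Cyp1b1, Cyp2c68 and Cyp2j9. These counts describe letters in 250 bases, and the similar promoters of close relatives are not independent.

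Among the Cyp1 genes only Cyp1a2, which oxidises caffeine and aromatic amines, was abundant. Cyp1a2 had 315, 0.2 and 121 FPKM in HF knockout, 76.7, 70.2 and 309 FPKM in HF floxed, 122.95, 180 and 187 FPKM in LF knockout, and 204, 194 and 126 FPKM in LF floxed libraries. The groups overlapped, and the spread within the HF groups exceeded any difference between group means. Cyp1a1, the AHR-induced oxidase of polycyclic hydrocarbons, had 0.19, 0.02 and 0.37 FPKM in HF knockout and 0.12, 0.26 and 0.39 FPKM in HF floxed libraries. It had 0.46, 0.30 and 0.57 FPKM in LF knockout, against 0.19, 0.09 and 0.12 FPKM in LF floxed libraries, so the LF groups did not overlap. These Cyp1a1 levels rest on 1 to 24 counts per library. Cyp1b1, a hydrocarbon and oestradiol oxidase found mostly outside hepatocytes, had 0.12, 0.16 and 0.29 FPKM in HF knockout and 0.53, 0.65 and 0.24 FPKM in HF floxed libraries. It had 0.13, 0.12 and 0.17 FPKM in LF knockout and 0.13, 0.07 and 0.19 FPKM in LF floxed libraries, and the HF floxed near copies were the 2 highest.

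Cyp2a12, a steroid hydroxylase, was the steadiest abundant Cyp2a gene. It had 234, 310 and 341 FPKM in HF knockout, 375, 362 and 423 FPKM in HF floxed, 275, 318 and 325 FPKM in LF knockout, and 273, 226 and 270 FPKM in LF floxed libraries. Its highest library was 1.87 times its lowest. Cyp2a5 had 300, 30.9 and 191 FPKM in HF knockout and 106, 102 and 251 FPKM in HF floxed libraries. In the LF groups it had 235, 305 and 297 FPKM in LF knockout, against 73.9, 175 and 103 FPKM in LF floxed libraries, without overlap.

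Cyp2a4 had the widest ratio of highest to lowest library among members with a value above 0 in every library. It had 0.15, 1120 and 80.2 FPKM in HF knockout, 11.0, 11.6 and 0.23 FPKM in HF floxed, 7.60, 1.99 and 1.43 FPKM in LF knockout, and 0.12, 0.04 and 1.09 FPKM in LF floxed libraries. HF knockout thus held both the highest library and one of the lowest. Of the FPKM of Cyp2a4 and Cyp2a5 together, Cyp2a4 made up 97.3% in HF knockout library 2 and 29.5% in HF knockout library 3, against at most 10.3% in the other 10 libraries. Cyp2a22 had 1.57, 4.19 and 13.7 FPKM in HF knockout and 12.1, 12.3 and 3.85 FPKM in HF floxed libraries. It had 3.73, 5.65 and 6.06 FPKM in LF knockout and 1.30, 1.60 and 1.16 FPKM in LF floxed libraries, so both LF knockout and HF floxed lay wholly above LF floxed.

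The 12 Cyp2c genes, many of which oxidise arachidonic acid, differed widely in level and in spread. Cyp2c29 had 311, 3.29 and 356 FPKM in HF knockout, 53.3, 58.2 and 598 FPKM in HF floxed, 325, 797 and 796 FPKM in LF knockout, and 615, 482 and 173 FPKM in LF floxed libraries. Cyp2c50 had 384, 0.56 and 199 FPKM in HF knockout, 46.0, 46.5 and 437 FPKM in HF floxed, 147, 420 and 424 FPKM in LF knockout, and 211, 223 and 120 FPKM in LF floxed libraries. Both genes had the same 3 lowest libraries, namely HF knockout 2 and HF floxed 1 and 2. Cyp2c37 was likewise at 0.77 FPKM in HF knockout library 2 and at 14.6 and 15.2 FPKM in HF floxed libraries 1 and 2, against 67.4 to 194 FPKM in the other 9. Cyp2c54 had no entry in HF knockout library 2, was taken as 0 there, and had 1.70 and 1.66 FPKM in HF floxed libraries 1 and 2, against 20.3 to 120 FPKM elsewhere. Cyp2c23, an arachidonic acid epoxygenase, shared this order with 15.9 FPKM, then 54.2 and 55.4 FPKM, against 81.3 to 216 FPKM elsewhere.

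Cyp2c39 showed the opposite picture in the near copies. It had 0.31, 0.21 and 84.4 FPKM in HF knockout, 66.3, 77.2 and 0.51 FPKM in HF floxed, 1.13, 1.80 and 1.96 FPKM in LF knockout, and 0.14, 0.77 and 0.27 FPKM in LF floxed libraries. The 3 libraries at 66.3 FPKM or more were all HF, and the other 3 HF libraries were as low as LF floxed. Its neighbour Cyp2c38 had 6.14, 0.02 and 41.4 FPKM in HF knockout and 31.3, 31.6 and 12.7 FPKM in HF floxed libraries. It had 26.5, 30.7 and 31.2 FPKM in LF knockout, against 3.16, 10.4 and 12.3 FPKM in LF floxed libraries, without overlap.

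Cyp2c68 had 56.6, 79.8 and 61.6 FPKM in HF knockout, 46.1, 45.1 and 37.2 FPKM in HF floxed, 99.0, 71.4 and 70.7 FPKM in LF knockout, and 54.3, 86.2 and 111 FPKM in LF floxed libraries. HF floxed was the lowest group and overlapped none of the other 3. Cyp2c40, which hydroxylates arachidonic acid, had 3.06, 6.78 and 5.71 FPKM in HF knockout and 3.29, 2.57 and 1.83 FPKM in HF floxed libraries. It had 8.59, 3.19 and 2.62 FPKM in LF knockout and 4.69, 8.08 and 8.18 FPKM in LF floxed libraries, so that HF floxed lay wholly below LF floxed. Cyp2c67 had 61.2, 19.01 and 98.3 FPKM in HF knockout and 119, 121 and 73.6 FPKM in HF floxed libraries. It had 136, 77.2 and 76.5 FPKM in LF knockout and 141, 162 and 162 FPKM in LF floxed libraries, and LF floxed was above all 9 others. Cyp2c70, which makes the muricholic bile acids of mice, was even, with 177, 107 and 124 FPKM in HF knockout, 99.3, 105 and 160 FPKM in HF floxed, 149, 136 and 142 FPKM in LF knockout, and 155, 166 and 141 FPKM in LF floxed libraries. Cyp2c55 had 0.47, 0.64 and 0.76 FPKM in HF knockout, against 1.26, 2.76 and 2.28 FPKM in LF knockout libraries. HF floxed had 0.57, 0.54 and 1.5 FPKM of it and LF floxed 1.28, 1.19 and 1.10 FPKM.

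Of the 6 Cyp2d genes, Cyp2d26, Cyp2d22 and Cyp2d10 were the most even. Cyp2d26, with the highest mean over the 12 libraries, had 771, 718 and 671 FPKM in HF knockout, 623, 573 and 798 FPKM in HF floxed, 789, 723 and 748 FPKM in LF knockout, and 613, 601 and 540 FPKM in LF floxed libraries, a range of 1.48 times. Cyp2d9 had the higher group mean in HF floxed (745 against 664 FPKM) and LF floxed (773 against 585 FPKM). Cyp2d22, the mouse gene set beside human CYP2D6, ranged from 52.1 to 87.2 FPKM. Cyp2d10 had 595, 311 and 367 FPKM in HF knockout, 464, 404 and 572 FPKM in HF floxed, 548, 422 and 443 FPKM in LF knockout, and 638, 556 and 656 FPKM in LF floxed libraries, where every LF knockout library was below every LF floxed library. Cyp2d9, a testosterone hydroxylase higher in male mouse liver, had 674, 113 and 335 FPKM in HF knockout and 583, 556 and 1096 FPKM in HF floxed libraries. It had 379, 682 and 712 FPKM in LF knockout and 985, 733 and 601 FPKM in LF floxed libraries, and both pairs of groups overlapped. Cyp2d40 ranged from 16.8 to 124 FPKM, 7.41 times, and Cyp2d9 over 9.67 times. Cyp2d12 was low, with 0 to 1.41 FPKM.

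Cyp2e1 had 4868, 27.5 and 3246 FPKM in HF knockout, 1860, 1853 and 4297 FPKM in HF floxed, 2981, 4165 and 4182 FPKM in LF knockout, and 1677, 3671 and 2179 FPKM in LF floxed libraries. The highest and the lowest library were both HF knockout. Cyp2f2, which activates naphthalene, had 400, 11.5 and 511 FPKM in HF knockout, 653, 591 and 629 FPKM in HF floxed, 615, 442 and 455 FPKM in LF knockout, and 721, 494 and 635 FPKM in LF floxed libraries. HF knockout lay wholly below HF floxed, also in the 2 libraries other than library 2.

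Cyp2j5, an epoxygenase of liver and kidney, had 115, 6.51 and 145 FPKM in HF knockout, 99.9, 115 and 152 FPKM in HF floxed, 136, 145 and 145 FPKM in LF knockout, and 114, 122 and 85.1 FPKM in LF floxed libraries. Leaving HF knockout library 2 aside, its levels stayed between 85.1 and 152 FPKM. Cyp2j6 ranged from 10.6 to 25.2 FPKM, with its highest value in HF knockout library 2. Cyp2j9 had 0.74, 0.17 and 0.91 FPKM in HF knockout and 3.09, 1.67 and 2.21 FPKM in LF knockout libraries, without overlap. It had 2.22, 1.30 and 0.66 FPKM in HF floxed and 2.03, 2.64 and 5.34 FPKM in LF floxed libraries.

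Cyp2r1, which hydroxylates vitamin D, was low and even, with 4.36, 6.32 and 4.62 FPKM in HF knockout, 5.85, 6.27 and 7.65 FPKM in HF floxed, 8.81, 6.29 and 7.94 FPKM in LF knockout, and 7.47, 8.21 and 8.82 FPKM in LF floxed libraries. Cyp2u1, a fatty acid hydroxylase, had 5.59, 2.88 and 4.38 FPKM in HF knockout, 2.86, 3.40 and 6.84 FPKM in HF floxed, 5.76, 5.23 and 6.82 FPKM in LF knockout, and 16.8, 7.08 and 5.44 FPKM in LF floxed libraries. Its highest value was 1 LF floxed library. Cyp2s1, known from epithelia, was near the limit of detection, with 0, 1.47 and 0.10 FPKM in HF knockout, 0.45, 0.14 and 0.26 FPKM in HF floxed, 0.14, 0.29 and 0.31 FPKM in LF knockout, and 0.14, 0.07 and 0.21 FPKM in LF floxed libraries.

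Cyp3a11, the main PXR-induced drug oxidase of mouse liver, had 62.2, 75.2 and 648 FPKM in HF knockout, 981, 1085 and 492 FPKM in HF floxed, 472, 581 and 568 FPKM in LF knockout, and 405, 243 and 569 FPKM in LF floxed libraries. HF knockout libraries 1 and 2 were the lowest of the 12, while HF knockout library 3 lay within the HF floxed range. Cyp3a25 had 69.2, 23.04 and 117 FPKM in HF knockout, against 119, 137 and 120 FPKM in HF floxed libraries. It had 132, 147 and 145 FPKM in LF knockout, against 109, 92.7 and 105 FPKM in LF floxed libraries. The knockout libraries were thus all below floxed on HF and all above floxed on LF.

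Cyp3a59 had 1.89, 5.37 and 7.88 FPKM in HF knockout, 9.78, 10.4 and 5.17 FPKM in HF floxed, 6.11, 10.2 and 9.34 FPKM in LF knockout, and 2.46, 2.38 and 2.26 FPKM in LF floxed libraries. LF floxed was tight and lay below every LF knockout and HF floxed library. Cyp3a13 had 67.3, 22.96 and 48.5 FPKM in HF knockout, 28.7, 32.6 and 36.9 FPKM in HF floxed, 41.5, 42.8 and 40.3 FPKM in LF knockout, and 30.9, 25.7 and 31.2 FPKM in LF floxed libraries. Cyp3a41a, higher in female than male mouse liver, had 0.12, 0.03 and 0.03 FPKM in HF knockout, 0.30, 0.09 and 0.06 FPKM in HF floxed, 0.21, 0.31 and 0.37 FPKM in LF knockout, and 0.03, 0 and 0.15 FPKM in LF floxed libraries. LF knockout lay wholly above HF knockout and LF floxed. Cyp3a41a is a member only through LF knockout libraries 2 and 3 and HF floxed library 1, so the filter favours this order.

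**Figure D2:**
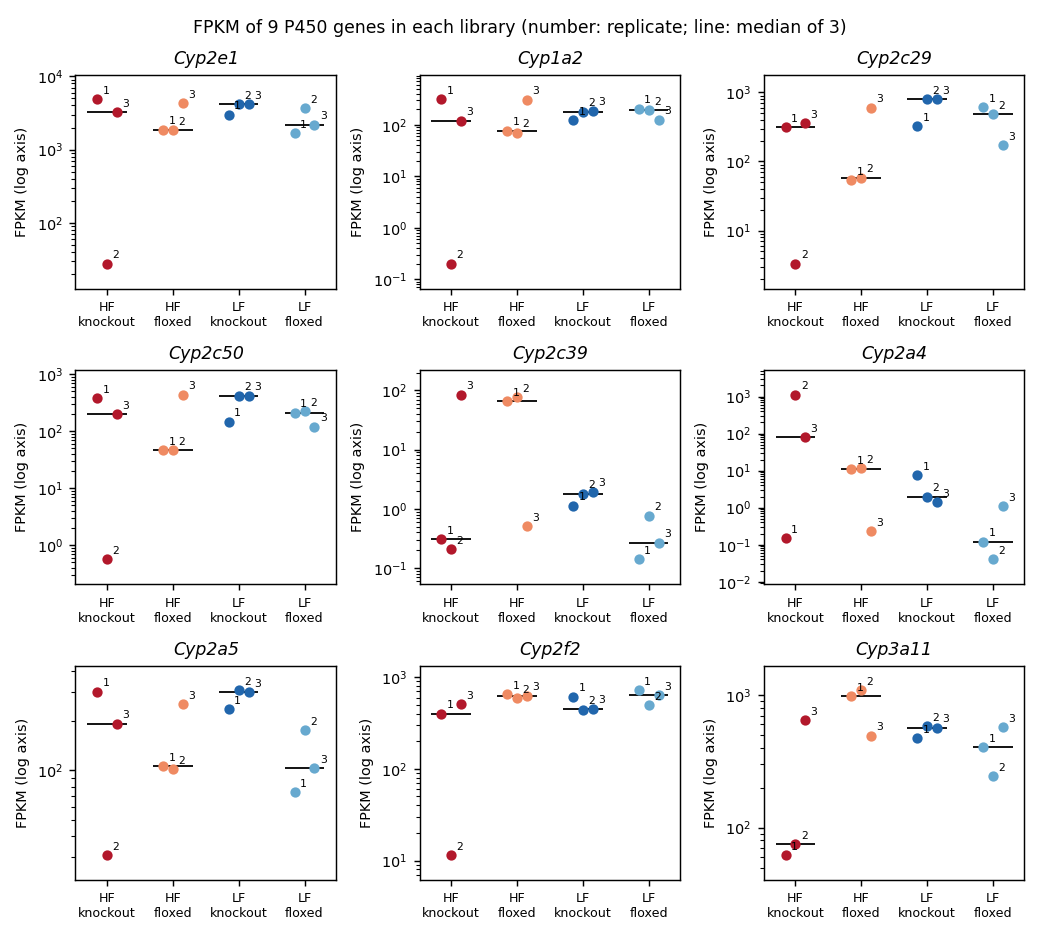
FPKM of 9 genes in each library on log axes, by group, with the replicate number beside each point and a line at the median of 3. HF knockout library 2 lies far below the rest for Cyp2e1, Cyp1a2, Cyp2c29, Cyp2c50 and Cyp2f2 and far above for Cyp2a4, and HF floxed libraries 1 and 2 lie together.

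The 20 members at their lowest in HF knockout library 2 comprised both Cyp1a genes, Cyp2a5, 7 Cyp2c genes, 4 Cyp2d genes, Cyp2e1, Cyp2f2, 2 Cyp2j genes and 2 Cyp3a genes. In 12 members (31.6%) the level there was at most 10% of the median of the other 11 libraries, against 1.76% of all genes tested. Cyp1a2, with 6 counts there, was 902-fold under that median. Cyp2c50 was 377-fold, Cyp2e1 118-fold and Cyp2f2 51.4-fold under it, and Cyp2c38 was at 0.02 FPKM. Cyp2d26 at 718 FPKM, Cyp2a12 at 310 FPKM and Cyp2c68 at 79.8 FPKM stayed within the range of the other libraries, and Cyp2a4, Cyp2j6 and Cyp2s1 were above it.

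Other measures moved with this library. The summed FPKM of 12 pericentral hepatocyte genes outside the P450s was 149 there, against 1151 to 2297 elsewhere, with glutamine synthetase (Glul) at 11.0 FPKM against 253 to 547 FPKM. The 11 periportal genes also summed lowest there, to 1664 FPKM against 3143 to 4580 FPKM, and so did the 14 redox partner and haem genes, to 1164 FPKM against 1659 to 2873 FPKM. Nr1i3, the gene of CAR, stood at 1.46 FPKM, against 20.8 to 58.4 FPKM. Alb, by contrast, was at 72054 FPKM, above the 20593 to 43610 FPKM elsewhere, and Hnf4a was at 112 FPKM. Both belong to a list of 10 hepatocyte markers, which summed to 99100 FPKM there, against 36860 to 66650 FPKM elsewhere. The median of that list was nevertheless lowest there, at 201.6 FPKM against 281.4 to 376.5 FPKM elsewhere. The summed FPKM of 8 bile duct markers, all listed there, was 1046 against 29.0 to 120 elsewhere, of which Spp1 gave 743 FPKM and Tspan8 280 FPKM, while Krt19 was at 0.92 FPKM and Krt7 at 0.96 FPKM. Their part in the P450 levels was not tested. In bulk tissue, fewer cells of a type and less RNA per cell cannot be told apart.

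**Figure D3:**
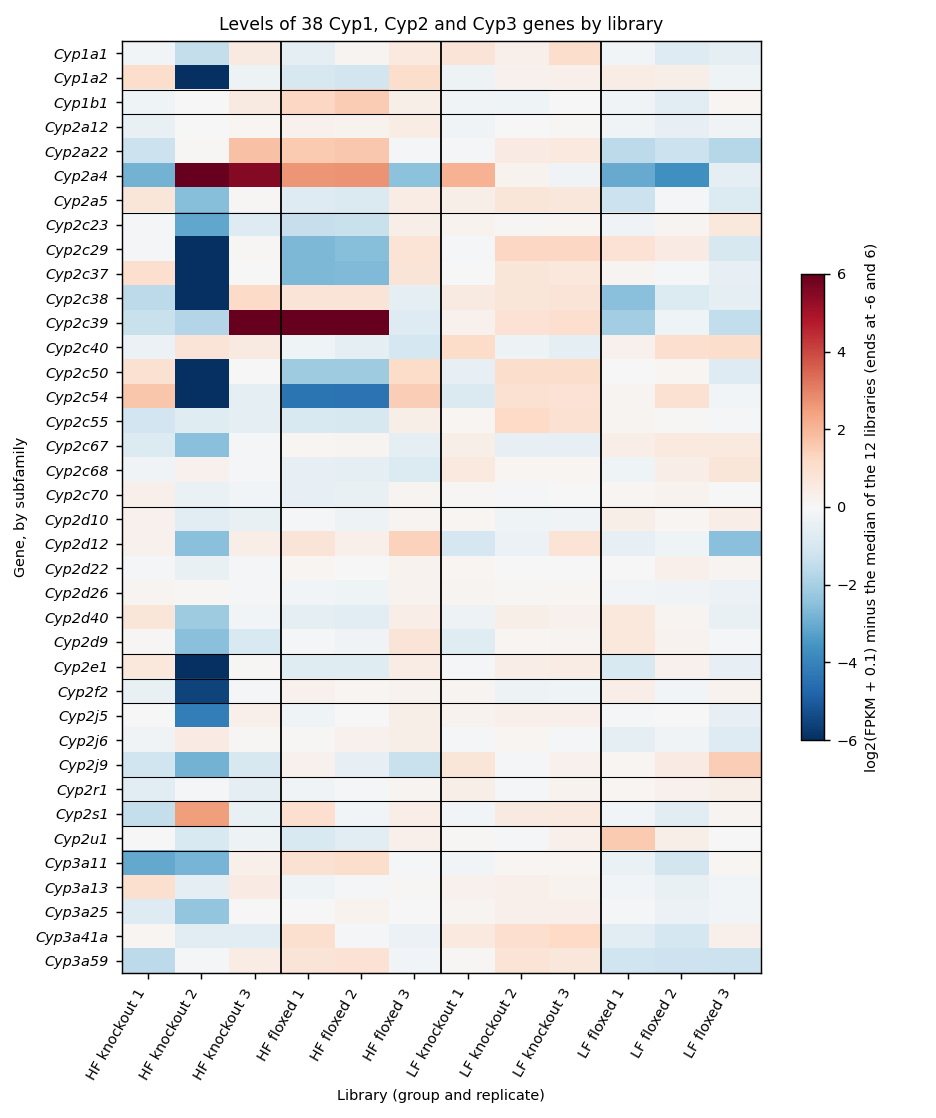
Level of each of the 38 genes in each library as log2(FPKM + 0.1) minus the gene's median over the 12 libraries, with colours ending at −6 and 6. The column of HF knockout library 2 is blue for most Cyp1a, Cyp2c, Cyp2e, Cyp2f and Cyp2j genes and red for Cyp2a4, and HF floxed libraries 1 and 2 share a pattern with low Cyp2c29, Cyp2c37, Cyp2c50 and Cyp2c54 and high Cyp2c39.

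The first comparison asked how the knockout label bears on the P450 genes under the HF diet. edgeR's quasi-likelihood test with Benjamini-Hochberg adjustment called none of the 38 members at a false discovery rate of 5%, as it called 0% of 12587 genes, and DESeq2 called none either (0.548% of all genes). At an unadjusted p under 0.05 edgeR had 3 members higher in HF knockout (4.59% of all genes) and 3 lower (3.06%), or 7.65% of all genes in either direction. The groups did not overlap in CPM (counts scaled to library size with TMM factors) for 2 members higher (4.75% of all genes), Cyp2c40 and Cyp2c68, and 2 lower (5.35%), Cyp2f2 and Cyp3a25. In FPKM, which is not scaled for composition, these were 1 higher (2.25%) and 4 lower (7.08%). On log2(FPKM + 0.1) the median of all genes itself stood at −0.14 in this comparison, at 0.15 in LF knockout against LF floxed and at 0.24 in HF floxed against LF floxed. The median log2 fold change of the members was −0.18, beside 0.03 for all genes, and 0.09 without HF knockout library 2. It was −0.54 without HF knockout library 1, 0.25 without HF floxed library 3 and −0.30 without HF floxed library 2.

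Smallest p-values among higher members belonged to Cyp2c68 and Cyp2a4. Cyp2c68 had a log2 fold change of 0.75 (SE 0.26, edgeR adjusted p = 0.598) and was higher in all 3 HF knockout libraries. Cyp2a4 had 5.84 (SE 2.07, edgeR adjusted p = 0.599), and 2.44 without HF knockout library 2. Cyp2c40 stood at 1.11 and Cyp3a13 at 0.67. Among the lower members Cyp1b1 had a log2 fold change of −1.19, Cyp3a59 −0.75, Cyp3a11 −1.67 and Cyp3a25 −0.73, with edgeR adjusted p from 0.610 to 0.706. Without HF knockout library 3, Cyp3a11 passed with a log2 fold change of −3.40 (SE 0.43, edgeR adjusted p = 0.0364), so 1 library decided that call.

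Under the LF diet the same label was set against LF floxed. No member was called by edgeR, which called 0.0159% of all genes, and DESeq2 called 1 member, Cyp3a59 (0.27% of all genes). At an unadjusted p under 0.05, 2 members were higher, Cyp3a59 and Cyp2a22 (2.58% of all genes), and none lower (2.55%), or 5.13% of all genes in either direction. Without overlap in TMM-scaled CPM, 11 of the 38 members were higher in LF knockout (6.53% of all genes) and 4 lower (6.9%). In FPKM these were 14 higher (16% of all genes) and 2 lower (2.18%). The median log2 fold change was 0.23 for the members and −0.02 for all genes.

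The 11 higher members were Cyp1a1, Cyp2a4, Cyp2a5, Cyp2a22, Cyp2c38, Cyp2c39, Cyp2j5, Cyp3a13, Cyp3a25, Cyp3a41a and Cyp3a59. They include 3 of 4 Cyp2a genes, and Cyp3a13, Cyp3a25 and Cyp3a59 of the Cyp3a genes. Cyp3a41a passed the count minimum only through LF knockout libraries 2 and 3 and HF floxed library 1. Its place among the higher members is thus partly set by the filter. Cyp3a59 had a log2 fold change of 1.31 (SE 0.31, 2.47-fold, edgeR adjusted p = 0.724), with DESeq2 at 1.33 (adjusted p = 0.0291). Cyp2a22 had 1.74, Cyp3a41a 2.04 and Cyp1a1 1.55, with edgeR adjusted p of 0.929 each. The lower members of smallest p were Cyp2u1 at −0.91, Cyp2c67 at −0.84, Cyp2d10 at −0.56 and Cyp2c40 at −0.68, with the same edgeR adjusted p of 0.929. LF knockout libraries 2 and 3 are near copies, so 2 of the 3 values behind each of these separations are not independent.

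HF floxed was set against LF floxed to show the diet in mice without the deletion. edgeR called none of the members (0% of all genes), and 5 members were higher (6.85%) and 5 lower (5.32%) at an unadjusted p under 0.05, or 12.2% of all genes in either direction. DESeq2 called 5 members (2.02% of all genes): Cyp2a22, Cyp2c39 and Cyp3a59 higher, and Cyp2c40 and Cyp2c68 lower. In TMM-scaled CPM 4 members lay wholly higher (11.5% of all genes) and 6 wholly lower (12.5%). In FPKM these were 8 higher (23.6%) and 3 lower (3.3%). The median log2 fold change was −0.15 for members, beside −0.001 for all genes. The members' median was 0.04 without HF floxed library 1, 0.04 without HF floxed library 2, −0.49 without HF floxed library 3, −0.23 without LF floxed library 3 and −0.06 without LF floxed library 1.

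Cyp2c68 had a log2 fold change of −1.23 (SE 0.26, 2.35-fold lower, edgeR adjusted p = 0.179; DESeq2 adjusted p = 0.00185). Cyp2c40, its near copy by sequence, had −1.71 (SE 0.45, edgeR adjusted p = 0.237). Both lay below LF floxed in all 3 HF floxed libraries. Cyp2a22 had a log2 fold change of 2.48 (SE 0.59, edgeR adjusted p = 0.215) and Cyp3a59 of 1.24 (SE 0.31, edgeR adjusted p = 0.226), each higher in 3 of 3 libraries. Cyp1b1 stood at 1.52. Cyp2c39 stood at 6.57 and was high in 2 of the 3 HF floxed libraries. Cyp2j9 stood at −1.59 and Cyp2u1 at −1.38.

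HF knockout was set against LF knockout to show the diet in mice labelled knockout. This comparison shares its HF knockout libraries with the first and its LF knockout libraries with the second. No member was called by edgeR (0% of all genes), and DESeq2 called Cyp2a4 (1% of all genes). At an unadjusted p under 0.05, 2 members were higher (8.81% of all genes) and 5 lower (3.38%), or 12.2% of all genes in either direction. In TMM-scaled CPM no member lay wholly higher (7.17% of all genes) and 5 lay wholly lower (6.75%), namely Cyp2c55, Cyp2j9, Cyp2r1, Cyp3a25 and Cyp3a41a. Of these, Cyp3a41a passed the count minimum partly through LF knockout libraries. In FPKM none lay higher (5.59%) and 6 lay lower (5.98%). The median log2 fold change was −0.32 for members, beside 0.03 for all genes. The members' median was −0.05 without HF knockout library 2 and −0.77 without HF knockout library 1.

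Cyp2c55 had a log2 fold change of −1.72 (SE 0.48, edgeR adjusted p = 0.344), and −1.71 without HF knockout library 2. Cyp2j9 had −1.50, Cyp3a59 −0.81 and Cyp2r1 −0.55. Of the higher members, Cyp2a4 had 6.66 (SE 2.16, edgeR adjusted p = 0.344), and 3.27 without HF knockout library 2. Cyp2c39 had 4.01, Cyp1b1 0.42 and Cyp2s1 1.04. Cyp2s1 turned to −2.30 without HF knockout library 2, and Cyp2c39 turned to −2.24 without HF knockout library 3. Without the same library Cyp3a11 passed at −2.86 (SE 0.42, edgeR adjusted p = 0.0499).

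**Figure D4:**
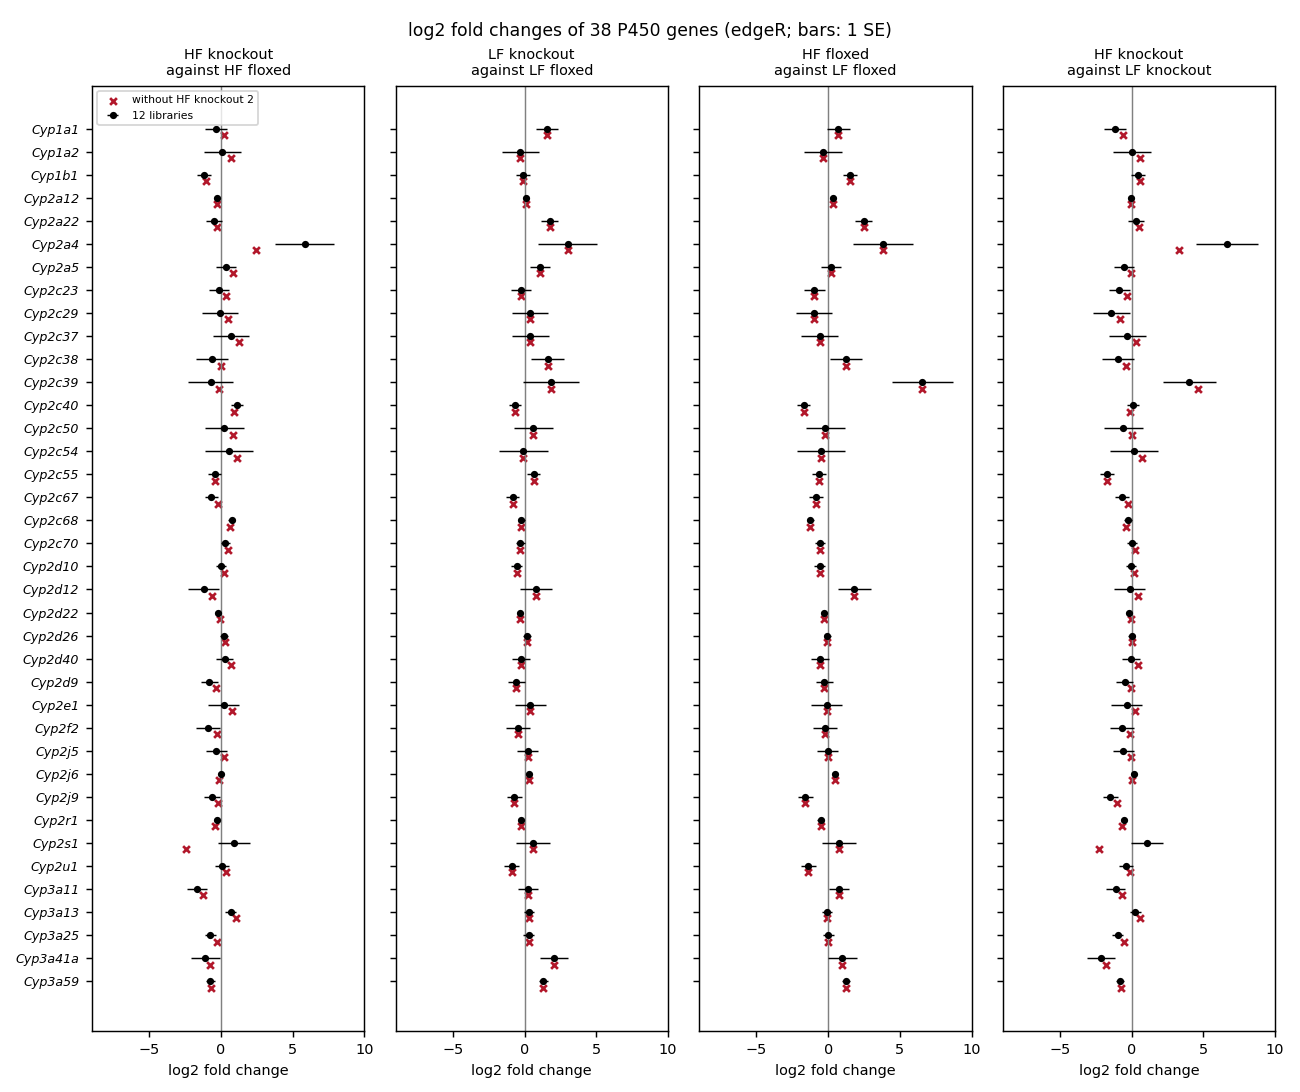
log2 fold changes of the 38 genes in 4 comparisons from edgeR, with bars of 1 SE, for all 12 libraries (black points) and without HF knockout library 2 (red crosses). In HF knockout against HF floxed and against LF knockout, Cyp2a4 and Cyp2s1 shift most without that library, and in the other 2 comparisons points and crosses coincide.

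The difference of the knockout effect between diets, HF minus LF, was tested as an interaction. edgeR called none of the members (0.0159% of all genes) and had 2 higher (5.21%) and 3 lower (4.34%) at an unadjusted p under 0.05, or 9.55% of all genes in either direction. DESeq2 called Cyp3a59 (0.85% of all genes). Cyp3a59 stood at −2.05 in log2 (SE 0.43, edgeR adjusted p = 0.368; DESeq2 adjusted p = 0.00541), and −1.99 without HF knockout library 2. Cyp2a22 had −2.22, Cyp3a41a −3.12 and Cyp3a11 −1.90. The value of Cyp3a41a is favoured by the filter, which it passed through LF knockout libraries 2 and 3 and HF floxed library 1. On the positive side stood Cyp2c40 at 1.79, Cyp2c68 at 0.97, Cyp2u1 at 0.99 and Cyp2c70 at 0.59. The median over the members was −0.23, beside 0.05 for all genes, and 0.11 without HF knockout library 2. It was −0.97 without HF knockout library 1, 0.22 without HF floxed library 3, and −0.40 and −0.42 without HF floxed libraries 1 and 2. Without an LF library it lay between −0.25 and −0.13.

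Members were also grouped by known role. Of the 8 tested CAR or PXR targets, 7 were higher in LF knockout than in LF floxed, as were 47.4% of all genes. In HF knockout against HF floxed 5 were higher, as were 53.4% of all genes, and 3 lower. Of 8 pericentral members, 2 were higher and 6 lower in HF floxed than in LF floxed. HF knockout against LF knockout gave the same counts. Of all genes, 50.1% and 47.1% were lower. These counts depended on few libraries. Without HF knockout library 2, Cyp2e1 and Cyp2c37 turned to 0.24 and 0.27 against LF knockout, and the others kept their sign. Of those others, Cyp2c50 and Cyp2a5 then stood at only −0.006 and −0.04. With near-identical libraries averaged, Cyp2e1, Cyp2c50 and Cyp2c54 turned to 0.15, 0.28 and 0.06 in HF floxed against LF floxed, and the others kept theirs. Among the latter, Cyp1a2 then stood at only −0.0008. Both lists hold Cyp2c29, Cyp2c37, Cyp2c50, Cyp2c54, Cyp2a5 and Cyp3a11, so their counts are not separate results. edgeR called no gene of either list. Of the genes known to be higher in female than male mouse liver 4 were tested, namely Cyp2a4, Cyp2c39, Cyp2c40 and Cyp3a41a. The whole list of 8, of which 7 are listed in these libraries, summed to 3.64, 1128 and 170 FPKM in HF knockout, 81.0, 91.6 and 2.70 FPKM in HF floxed, 17.9, 7.48 and 6.52 FPKM in LF knockout, and 5.04, 9.11 and 9.89 FPKM in LF floxed libraries. The large sums came mostly from Cyp2a4 and Cyp2c39. Cyp2a4 gave 1120 FPKM in HF knockout library 2 and 80.2 FPKM in library 3. Cyp2c39 gave 84.4 FPKM in that library 3 and 66.3 and 77.2 FPKM in HF floxed libraries 1 and 2. In HF floxed against LF floxed 3 of the 4 tested genes were higher, and Cyp2c40 was lower at −1.71 in log2. The labels give no sex, and 4 Y-linked genes summed to 17.2 to 35.3 FPKM in all 12 libraries.

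Genes outside the P450s that AHR, CAR or PXR regulate were followed as a list of 18 tested genes, none of which edgeR called in any of the 5 comparisons. In LF knockout against LF floxed 15 were higher (4 at an unadjusted p under 0.05, beside 2.58% of all genes), led by Abcc3, a bile salt and conjugate exporter, at a log2 fold change of 1.96, and Aldh1a1, a retinaldehyde dehydrogenase, at 1.38. In HF floxed against LF floxed 13 were higher (7 at that mark, beside 6.85% of all genes), led by Abcc3 at 2.09 and Gsta1, a glutathione transferase, at 3.99. In HF knockout against HF floxed 13 were lower (6 at that mark, beside 3.06% of all genes), led by Gstm3, another glutathione transferase, at −2.09 and Nqo1, a quinone reductase, at −1.50. In HF knockout against LF knockout 15 were lower (3 at that mark, beside 3.38% of all genes), led by Abcc2 at −0.58 and Gstm1 at −0.96. The interaction had 13 lower (8 at that mark, beside 4.34% of all genes), with Abcc3 at −2.66 and Nqo1 at −2.71. The median of the list was −1.06 there, beside 0.05 for all genes. Of all genes, 47.4% were higher in LF knockout against LF floxed and 49.9% in HF floxed against LF floxed. Lower were 46.6% in HF knockout against HF floxed, 47.1% in HF knockout against LF knockout and 46% in the interaction. The comparisons share groups, so these counts are not independent. All 19 listed genes summed to 1721, 1123 and 2991 FPKM in HF knockout and 4343, 3968 and 3126 FPKM in HF floxed libraries. They summed to 3054, 3687 and 3869 FPKM in LF knockout and 1800, 2043 and 3181 FPKM in LF floxed libraries. HF knockout library 3 thus lay close to HF floxed library 3, and the 2 highest HF floxed values are those of the near copies.

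Of 7 tested regulator genes, which include those of AHR, CAR and PXR, none reached an unadjusted p under 0.05 in any of the 5 comparisons. Nr1i2, the gene of PXR, ranged from 10.7 to 24.6 FPKM. Of 14 genes for the redox partners and haem supply of P450s, 13 were lower in HF knockout than in LF knockout, as were 47.1% of all genes (2 at that mark, beside 3.38% of all genes), with Cyb5b at −0.69 and Pgrmc1 at −0.55 on the log2 scale (edgeR adjusted p of 0.350 and 0.370). These 14 genes summed to 1990, 1164 and 2254 FPKM in HF knockout, against 2145, 2522 and 2545 FPKM in LF knockout libraries. The sums overlapped, and HF knockout library 2 was far the lowest. Alas1, the rate-limiting enzyme of haem synthesis, had 124, 15.02 and 64.9 FPKM in HF knockout, 211, 207 and 72.8 FPKM in HF floxed, 77.6, 188 and 187 FPKM in LF knockout, and 29.3, 87.2 and 23.2 FPKM in LF floxed libraries.

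Markers of inflammation were set beside these values. Of 19 acute phase genes, 18 were higher in HF knockout than in HF floxed, as were 53.4% of all genes, and 12 did so at an unadjusted p under 0.05 (4.59% of all genes). Against LF knockout 18 were higher, as were 52.9% of all genes, and 11 at that mark (8.81% of all genes). edgeR called none of them. Lcn2 had 797, 707 and 293 FPKM in HF knockout, 159, 152 and 45.8 FPKM in HF floxed, 10.6, 37.2 and 37.9 FPKM in LF knockout, and 1.63, 6.89 and 4.37 FPKM in LF floxed libraries, and no 2 of the 4 groups overlapped. Saa1 was at 3483 FPKM in HF knockout library 1, where Cyp3a11 was at its lowest and Cyp2e1 and Cyp1a2 at their highest. The 10 neutrophil markers summed to 537 FPKM in HF knockout library 3, against 1.75 to 13.01 FPKM in the other 11, with S100a8 at 176 FPKM and Ly6g at 1.13 FPKM. The 13 macrophage markers, all listed, summed to 191, 87.6 and 335 FPKM in HF knockout, 210, 210 and 109 FPKM in HF floxed, 69.8, 137 and 129 FPKM in LF knockout, and 64.5, 79.7 and 201 FPKM in LF floxed libraries. Their part in the P450 levels was not tested.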

How the data were processed

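Each of the 12 libraries came as 1 deposited file of estimated counts, FPKM values and gene lengths, which per the file headers have the layout of RSEM. The FPKM values were made by the authors by scaling to gene length and depth. Build mm9 is named per the submitters' processing notes. For the aligner and annotation, the sources used here name none. The deposited files list no gene under 0.01 FPKM, so absent genes were taken as 0. Of the deposited counts, 87.0 to 88.1% were whole. The 1229 loci without a gene name, with 6.65 to 17.33% of the counts, stayed out of the tests.

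After rounding, the estimated counts went into edgeR 4.0.16 under R 4.3.3 (TMM, filterByExpr, 1 mean per group over the 12 libraries, quasi-likelihood F tests, Benjamini-Hochberg adjustment over 12587 genes). DESeq2 1.42.0, limma 3.58.1 on log2 FPKM and other settings were alternatives. The pipeline was tested on simulated data. Promoter identities came from pairwise alignment in Biopython 1.88 and transcript identities from BLAST 2.17.0. Members and lists were chosen with earlier results of these data known.

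Genes described with full values were the leading member of each subfamily and, in each comparison, the 4 members of smallest p in each direction. Further members were chosen after their values were seen. Replicate numbers did not pair the libraries: correlations of same-numbered libraries' deviations ran from −0.331 to 0.404.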

Additional observations from a re-analysis of the deposited data

Results flagged for a closer look

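Cyp3a25 was singled out because its knockout libraries lay on opposite sides of the floxed libraries on the 2 diets, without overlap. All HF knockout libraries were below all HF floxed libraries, and all LF knockout libraries were above all LF floxed libraries, in TMM-scaled CPM. The difference of the 2 effects, HF minus LF, was −1.01 on the log2 scale (edgeR adjusted p = 0.596), and −0.59 without HF knockout library 2, so the test of the difference was not passed. The HF separation was narrow in FPKM, with HF knockout library 3 at 117 and HF floxed library 1 at 119. HF floxed and LF knockout each hold a pair of near copies. The share of all genes with such a pattern was not counted. Cyp3a25 shares 97.0% of its transcript sequence with Cyp3a59.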

How the results depend on the processing

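There were 24 planned settings and 1 chosen after seeing the data, and those not named here called no member in any comparison. DESeq2 called 0 members in HF knockout against HF floxed, 1 in LF knockout against LF floxed, 5 in HF floxed against LF floxed, 1 in HF knockout against LF knockout and 1 in the interaction. limma voom with sample weights called 3 members in LF knockout against LF floxed, where it called 832 of 12587 genes. It called 14 members in HF floxed against LF floxed (1510 genes) and 2 in the interaction (34 genes). For HF floxed against LF floxed, a fit of these 2 groups alone called 3 of 35 tested members (82 of 12077 genes). With both HF knockout replicate 1 and HF floxed replicate 3 left out, 3 members were called (158 of 12819 genes). HF floxed then held only the near copies, replicates 1 and 2, which that fit counts as separate libraries. With near-identical libraries averaged, no member was called in this comparison. Leaving out single libraries gave 0 to 1 members in HF knockout against HF floxed, 0 to 1 in HF knockout against LF knockout and 0 to 2 in the interaction, each maximum without HF knockout replicate 3. Without that library 14, 10 and 17 of 12783 genes were called, in the same order. The member called was Cyp3a11, with Cyp3a59 beside it in the interaction.

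The median log2 difference of members ran over all settings from −0.535 to 0.254 in HF knockout against HF floxed, 0.17 to 0.37 in LF knockout against LF floxed, −0.506 to 0.055 in HF floxed against LF floxed and −0.935 to −0.014 in HF knockout against LF knockout. For the interaction, leaving out single libraries gave −0.97 (without HF knockout replicate 1) to 0.22. In HF knockout against LF knockout, Cyp2s1 turned to −2.30 without HF knockout replicate 2, to −1.605 with sample weights and to −2.11 with that library out and near-identical libraries averaged, and Cyp2c39 turned to −2.24 without HF knockout replicate 3. With single libraries left out these ran from −2.30 to 1.60 for Cyp2s1 and from −2.24 to 4.59 for Cyp2c39. The cause was not tested. With the replicate number as a block the members called stayed at 0 in all 5 comparisons and the medians were −0.20, 0.24, −0.255, −0.525 and −0.16, in the order of the report.

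Depth limits Cyp1a1, Cyp1b1, Cyp2d12, Cyp2s1 and Cyp3a41a, whose levels rest on few counts. Cyp2c55 had only 15 to 87 counts per library and Cyp2j9 9 to 208. In LF floxed libraries Cyp2a4 had at most 29.76 counts and Cyp2c39 at most 27, which limits their log2 fold changes against that group. With 3 libraries a group, near copies among them and 1 library far from the rest, a difference that misses the threshold does not show equal levels. Read division between near-identical genes is uncertain.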
